A study of Mus musculus with 3 samples.

Results

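The genes described here are the MHC class II genes of the intestinal epithelium, namely Cd74, H2-Aa, H2-Ab1, H2-Eb1, H2-DMa, H2-DMb1 and Ciita. They are 7 of the 27998 genes counted by single-cell RNA sequencing (scRNA-seq) of EpCAM+ small intestinal cells. The 7 genes were chosen by name and were read in crypt, enterocyte and adenoma cells of 3 mouse libraries. Every cell with a UMI (unique molecular identifier, 1 counted transcript molecule) of Ptprc, the gene of the leukocyte antigen CD45, was left out. These classes then held 5819 of 10105 filtered cells in WT, 6940 of 9566 in LApc and 12121 of 14357 in LApcL. The Ptprc rule took 14, 25 and 18 cells from these classes, and the other cells were of other classes or unnamed.

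The study asked what Lef1, a transcription factor of the Wnt pathway, does in Apc-mutant adenomas. The strain was C57BL/6 per the labels, the Lef1 fl/fl line having been backcrossed to it from a mixed background with 129SV. The mice received 2 doses of 2 mg tamoxifen at 7 to 8 weeks of age. WT cells were collected 21 days after tamoxifen, LApc cells (Lgr5-CreERT2 with Apc fl/fl) after 29 days and LApcL cells (Lgr5-CreERT2 with Apc fl/fl and with Lef1 fl/fl) after 21 days, when the mutants met the criteria for euthanasia. The Cre is active in Lgr5-expressing stem cells, so undeleted epithelium remained beside the adenomas. Each group was 1 mouse per the study's methods, in an experiment that was repeated, and 1 library per genotype was used here. The study's WT controls in another experiment carried the Lgr5 Cre, and whether the WT mouse of this library did is not given in the sources used here. Cells were sorted for EpCAM, with CD45 and Ter-119 antibodies in the stain. With 1 library per genotype no test between genotypes was possible. Differences are therefore differences between libraries, and each 95% interval covers counting error only. Genotype cannot be told apart from mouse and library, nor, for LApc, from the later day.

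Lef1 stood at 21.3 CPM (UMIs of a gene scaled to a common total of UMIs per class and library) in LApc adenoma cells and at 3.48 CPM in LApcL adenoma cells, against 0.352 CPM in WT crypt cells. Apc stood at 48.3, 37.3 and 19.1 CPM in the same cells, and 3′ counts can include transcripts that lack an exon. The adenoma markers (Sox17, Msx1, Prox1, Notum and the like) summed to 1463 CPM in LApc and 920 CPM in LApcL adenoma cells. In crypt cells they summed to 3.66 CPM in WT, 24.7 in LApc and 157 in LApcL, and the part of this in the crypt values below was not tested. The enterocyte markers summed to between 42150 and 67311 CPM in enterocytes and to at most 5172 CPM in crypt cells. Median depth per cell lay between 6218.5 and 11588 UMIs over these classes and was lowest in LApc. Cell classes were rebuilt by clustering and are crypt-like, enterocyte-like and adenoma-like clusters, called crypt, enterocyte and adenoma cells here. Only 4 WT cells fell in the adenoma class, so WT has no adenoma values below.

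MHC class II molecules carry peptides to the cell surface for CD4 T cells. H2-Aa and H2-Ab1 encode the α and β chains of I-A, the class II molecule of C57BL/6 mice. H2-Eb1 encodes the β chain of I-E, which this strain does not display because its H2-Ea gene is not functional. Cd74 encodes the invariant chain that fills and escorts the new molecule, H2-DMa and H2-DMb1 encode the editor that exchanges the filler for peptide, and Ciita encodes the transactivator that switches the set on. Besides professional antigen-presenting cells, small intestinal stem cells and enterocytes are known to make class II, above all under interferon gamma.

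Of the 7 genes, 5 lie in the MHC region of chromosome 17 in GRCm38: H2-DMa (chr17:34119541-34139101), H2-DMb1 (chr17:34153072-34160230), H2-Ab1 (chr17:34257689-34269419), H2-Aa (chr17:34282744-34287823) and H2-Eb1 (chr17:34305867-34316674). H2-Aa lies on the minus strand and the others on the plus strand. Ciita lies at chr16:10480059-10528418. RefSeq promoters (GRCm38.p6, 250 bases before to 50 after the start) were at hand for 4 of the 7 genes. They are shown because the genes moved together and because class II promoters are known to share an X and a Y box. The X1 letters CTNGNAAC and the Y letters TGATTGG were searched on both strands. The stretches below run 5′ to 3′ on the gene's strand, with X1 and Y in capitals.
H2-Aa (chr17:34287857-34287917, minus strand): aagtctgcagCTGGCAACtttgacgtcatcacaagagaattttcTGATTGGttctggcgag
H2-Eb1 (chr17:34305763-34305822, plus strand): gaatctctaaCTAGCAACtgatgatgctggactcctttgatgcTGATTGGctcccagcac
H2-DMb1 (chr17:34153094-34153111, plus strand, X1 only): CTAGTAACtgatgatgct

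In all 3 promoters X1 came first and Y followed 33 or 34 bases downstream, with X1 between 84 and 97 bases before the start. X1 letters alone stood in 13.2% of 32851 mouse promoters and Y letters alone in 7.82%. X1 followed by Y within 15 to 50 bases stood in 32 promoters, 0.0974% of all. Neither H2-DMa promoter held either run of letters. Cd74, H2-Ab1 and Ciita had no entry. The H2-DMb1 stretch overlaps an annotated exon, and the other 2 stretches overlap none. The letters were matched as text only.

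In the WT intestine the class II genes were higher in enterocytes, taken as a whole class, than in crypt cells. WT enterocytes outside the Fabp6-high state, described below, had lower class II sums than WT crypt cells. Cd74 stood at 917 CPM (95% interval 907 to 928) in WT enterocytes and 349 CPM (343 to 356) in WT crypt cells. H2-Aa had the largest step of the set, with 220 CPM in enterocytes and 50.6 CPM in crypt cells, 4.36-fold. H2-Ab1 (291 and 107 CPM), H2-Eb1 (147 and 64.4 CPM), H2-DMa (61.5 and 30.2 CPM) and H2-DMb1 (52.0 and 14.6 CPM) all stood at least 2.03-fold higher in enterocytes. Ciita had 170 UMIs in enterocytes and 79 in crypt cells, or 5.71 and 2.32 CPM. A gene could be called, at a 2-fold difference, where its mean over the 2 profiles compared reached 10 CPM, which Ciita did not and the 6 others did. All 6 passed 2-fold higher, where 13.5% of 7159 genes passed. The summed log2 ratio was 1.46 (1.43 to 1.48), and the median gene lay at -0.09.

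Taken over whole classes, the step from crypt to enterocyte was smaller in the libraries with adenomas. The summed log2 ratio was 0.79 (0.76 to 0.81) in LApc and 0.72 (0.69 to 0.75) in LApcL. H2-Aa still stood 3.03-fold and 2.35-fold higher in enterocytes, and H2-Ab1 2.07-fold and 1.97-fold. Cd74 stood 1.56-fold and 1.59-fold higher, H2-Eb1 1.38-fold and 1.19-fold. In LApc, H2-Aa and H2-Ab1 passed 2-fold (14.1% of all genes did), and in LApcL H2-Aa alone (13.2% of all genes). Enterocyte classes differed between libraries in their mix of states, described below. Weighting the states as in WT, chosen after seeing the data, raised the LApcL enterocyte sum from 1470 CPM to 2149 CPM. Its step over LApcL crypt cells (892 CPM) was then larger than given here. For LApc enterocytes this sum changed little, from 2141 CPM to 2167 CPM. The part of the mix in the smaller steps was not tested further.

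**Figure D1:**
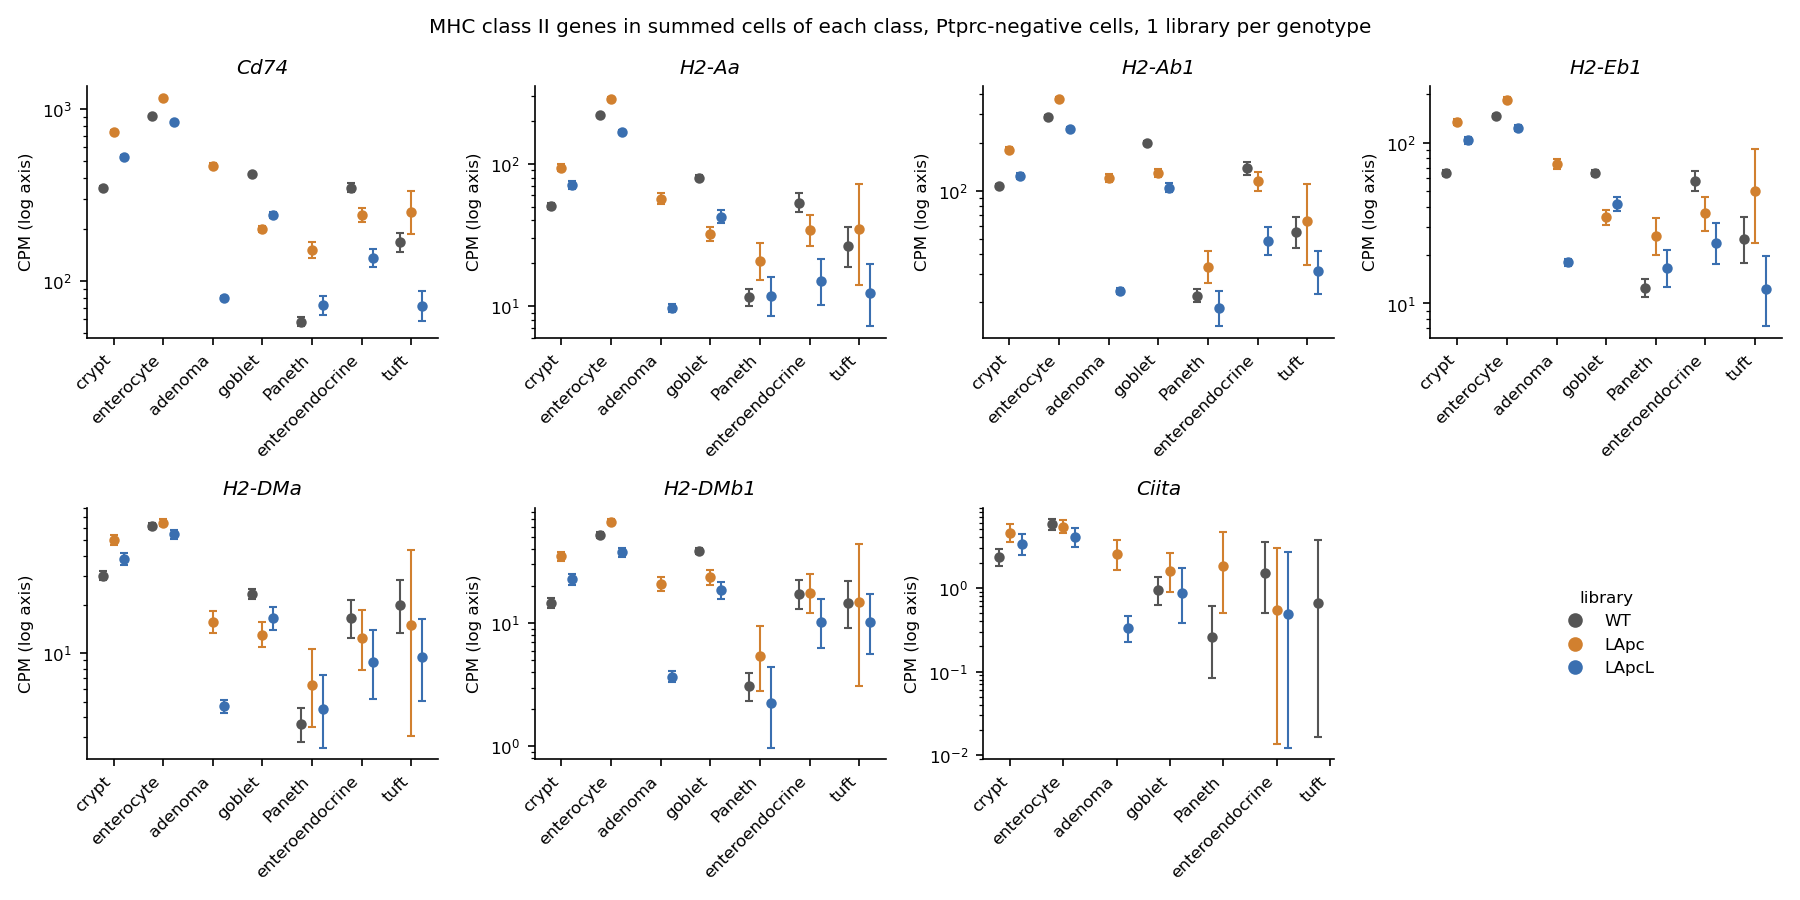
Level of each of the 7 genes (y axis, CPM, log scale) in the summed Ptprc-negative cells of each cell class (x axis) for the WT, LApc and LApcL libraries; points are 1 library each, bars are 95% counting intervals, and a point with no UMIs is not drawn. In crypt cells LApc lies highest and WT lowest for every gene, and LApcL adenoma cells (Cd74 at 80.0 CPM) lie far below LApc adenoma cells (470 CPM).

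Class II levels differed widely among enterocyte states. Enterocytes were split by Fabp6, the ileal bile acid binding protein, and Apoa4, an apolipoprotein of lipid-absorbing enterocytes. A cell was high in a gene at 0.1% or more of its UMIs, and cells high in both were counted as Fabp6-high. Fabp6-high enterocytes had the highest class II sums of the enterocyte states, at 4132 CPM in WT (986 cells), at 3541 CPM in LApc (901 cells) and at 4170 CPM in LApcL (291 cells). Remaining enterocytes, low in both genes, had 221 CPM in WT (1048 cells), at 677 CPM in LApc (1018 cells) and at 681 CPM in LApcL (865 cells). These sums lay below those of crypt cells of the same library, at 618, 1239 and 892 CPM in WT, LApc and LApcL. Within each library, all 6 genes were over 2-fold higher in Fabp6-high than in remaining enterocytes, where 4.69%, 5.24% and 7.18% of all genes were. The limit cuts a continuum, and 451 of 2816 WT enterocytes lay within 2-fold of the Fabp6 limit.

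Differences between libraries went with the state. In Fabp6-high enterocytes the 3 libraries lay close together, with a log2 ratio of -0.22 (-0.25 to -0.20) for LApc over WT and 0.01 (-0.02 to 0.04) for LApcL over WT. Cd74 there stood at 2272 CPM in WT, at 1989 CPM in LApc and at 2379 CPM in LApcL. Apoa4-high enterocytes lay far apart, with class II sums of 436 CPM in WT (782 cells), at 2482 CPM in LApc (1659 cells) and at 1489 CPM in LApcL (594 cells). H2-Aa there stood at 45.2 CPM in WT, at 362 CPM in LApc and at 196 CPM in LApcL. The Apoa4-high sum lay below that of crypt cells in WT (618 CPM) and above it in LApc (1239 CPM) and LApcL (892 CPM). The summed log2 ratio over WT was 2.51 in LApc and 1.77 in LApcL for Apoa4-high cells, and 1.61 and 1.62 for remaining cells. In LApc all 6 genes passed 2-fold in Apoa4-high cells (2.26% of all genes) and in remaining cells (1.2%). In LApcL 5 of 6 passed in Apoa4-high cells (4.35%), without H2-DMa, and 6 of 6 in remaining cells (0.891%).

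Over all enterocytes the libraries lay closer together, with unequal numbers of Fabp6-high cells, at 986 of 2816 in WT, 901 of 3578 in LApc and 291 of 1750 in LApcL. Cd74 stood at 917 CPM in WT, at 1158 CPM in LApc and at 840 CPM in LApcL, and H2-Aa at 220, 286 and 168 CPM. None of the 6 genes passed 2-fold in LApc over WT (1.74% of all genes were higher and 1.19% lower) or in LApcL over WT (1.53% higher, 1.54% lower). The summed log2 ratio was 0.34 (0.32 to 0.36) for LApc over WT and -0.21 (-0.23 to -0.18) for LApcL over WT. With a mitochondrial limit of 10%, which kept 2308 LApc and 2329 WT enterocytes at 1677 and 1703 CPM, the first became -0.02. With the 3 states weighted as in WT, an alternative chosen after seeing the data, the ratios were 0.35 and 0.34, so the second turned. In WT, LApc and LApcL enterocytes, T cell and NK cell markers summed to 2.05, 8.22 and 6.12 CPM and myeloid markers to 0.974, 5.82 and 0.987 CPM. Plasma cell markers summed to 0, 13.1 and 0.0658 CPM, and B cell markers, highest in WT, to 1.21, 0.889 and 0.856 CPM. With every cell holding an immune marker UMI left out, the whole-class ratios were 0.34 and -0.19.

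**Figure D2:**
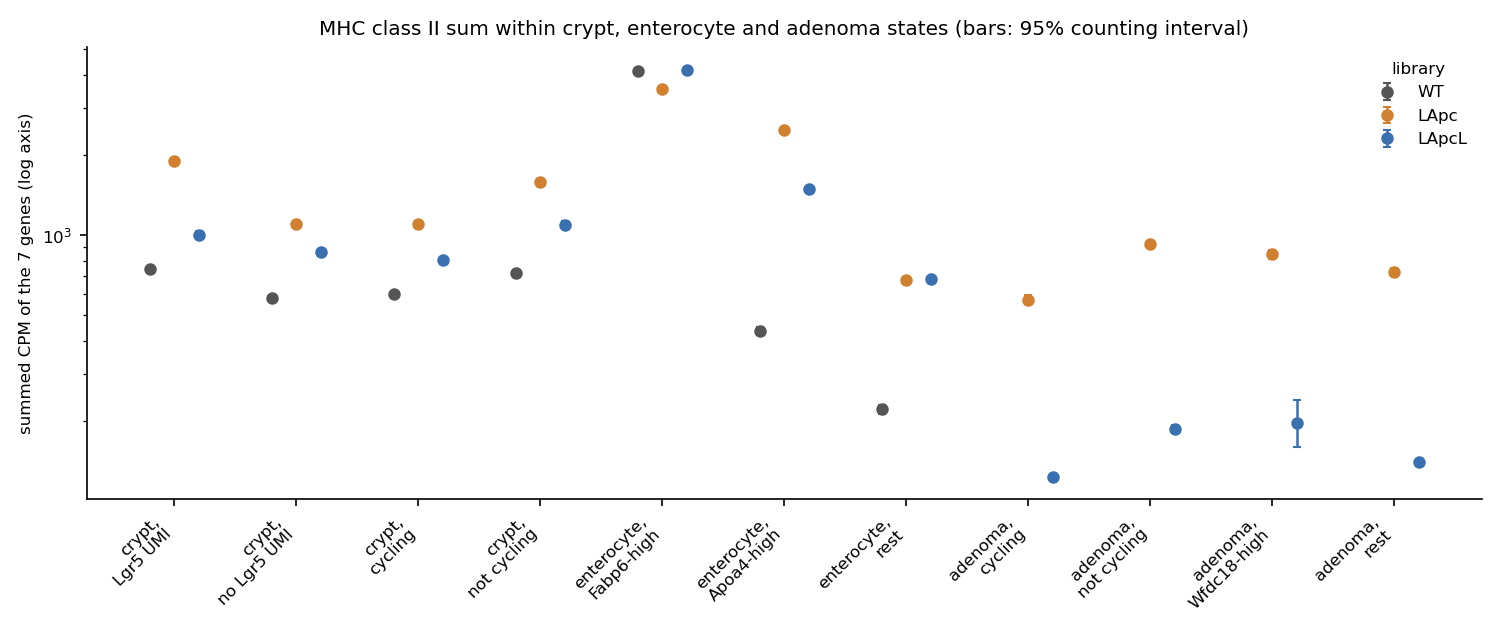
Summed CPM of the 7 genes (y axis, log scale) in states of crypt, enterocyte and adenoma cells (x axis) for the 3 libraries, with 95% counting intervals mostly smaller than the points. Fabp6-high enterocytes of all 3 libraries sit between 3541 and 4170 CPM, while Apoa4-high enterocytes run from 436 CPM in WT to 2482 CPM in LApc.

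In crypt cells every one of the 7 genes stood highest in LApc and lowest in WT. Cd74 stood at 349 CPM in WT, at 740 CPM in LApc and at 529 CPM in LApcL. For I-A, H2-Aa stood at 50.6, 94.3 and 71.3 CPM and H2-Ab1 at 107, 181 and 124 CPM. H2-Eb1 stood at 64.4, 134 and 104 CPM. The peptide editor followed, with H2-DMa at 30.2, 50.1 and 38.3 CPM and H2-DMb1 at 14.6, 34.9 and 22.6 CPM. Ciita stood at 2.32 CPM (1.83 to 2.89) in WT, 4.50 CPM (3.50 to 5.70) in LApc and 3.34 CPM (2.45 to 4.44) in LApcL. The LApcL interval for Ciita overlaps the WT and the LApc interval.

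LApc crypt cells held 2.00-fold the class II sum of WT crypt cells (log2 ratio 1.00, 0.97 to 1.03). Cd74 (2.12-fold), H2-Eb1 (2.09-fold) and H2-DMb1 (2.38-fold) passed 2-fold, 3 of 6 genes where 0.905% of 7291 genes passed. LApcL crypt cells held 1.44-fold the WT sum (log2 ratio 0.53, 0.50 to 0.56), and none of the 6 genes passed 2-fold (1.01% of all genes were higher and 1.29% lower). With cell classes taken from marker scores, this ratio was 0.15. T cell and NK cell markers summed to 1.14 CPM in WT crypt cells, to 4.63 CPM in LApc and to 0.852 CPM in LApcL, and myeloid markers to 0.733, 2.74 and 0.497 CPM, so both lists stood highest in LApc too. With every cell holding an immune marker UMI left out, the log2 ratios of LApc over WT were 1.08 for Cd74, 1.05 for H2-Eb1 and 1.26 for H2-DMb1, again 3 of 6 past 2-fold.

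Crypt cells with a UMI of Lgr5, the stem cell receptor, had higher class II sums than crypt cells without, at 746 against 579 CPM in WT, 1893 against 1100 CPM in LApc and 997 against 859 CPM in LApcL. Cycling crypt cells had lower sums than non-cycling ones in each library, at 598 against 718 CPM in WT, 1095 against 1582 CPM in LApc and 805 against 1092 CPM in LApcL. Cd74 in Lgr5 UMI cells stood at 410 CPM in WT, at 1120 CPM in LApc and at 589 CPM in LApcL. Here 5 of 6 genes, all but H2-DMa, passed 2-fold in LApc over WT (1.95% of all genes) and none in LApcL over WT (1.42% higher, 1.48% lower). Whether a cell shows a Lgr5 UMI also depends on its depth.

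Adenoma cells of the LApcL library stood far below those of the LApc library in all 7 genes. Cd74 stood at 470 CPM (457 to 484) in LApc and 80.0 CPM (78.3 to 81.7) in LApcL, 5.88-fold lower. H2-Aa stood at 57.1 and 9.72 CPM, H2-Ab1 at 121 and 23.6 CPM, and H2-Eb1 at 74.0 and 18.0 CPM. H2-DMb1 stood at 20.8 and 3.69 CPM and H2-DMa, with the smallest gap, at 15.6 and 4.66 CPM (3.35-fold). Ciita had 25 UMIs in 1248 LApc cells and 35 UMIs in 8865 LApcL cells, or 2.55 and 0.327 CPM. All 6 callable genes were over 2-fold lower in LApcL, where 6.55% of 7874 genes were. The summed log2 ratio was -2.44 (-2.48 to -2.40), and the median gene lay at -0.08.

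The gap ran through the adenoma states. Cycling adenoma cells had class II sums of 571 CPM in LApc against 124 CPM in LApcL, and non-cycling ones 925 against 187 CPM. Cells high in Wfdc18, a secreted protease inhibitor gene among the leading genes of the adenoma cluster, had 845 CPM in LApc (351 cells) and 197 CPM in LApcL (55 cells). The rest had 728 and 140 CPM. The Wfdc18 limit was 0.1% of a cell's UMIs, and 180 LApc and 125 LApcL adenoma cells lay within 2-fold of it, above or below. In the rest, 6 of 6 genes were over 2-fold lower in LApcL (5.64% of all genes), and in Wfdc18-high cells 5 of 6, without H2-DMa (6.84%).

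Against crypt cells of their own library, the 2 adenomas stood at different distances. LApc adenoma cells lay modestly lower, with a summed log2 ratio of -0.70 (-0.74 to -0.66). Only H2-DMa passed 2-fold there, at 15.6 CPM against 50.1 CPM in crypt cells (4.92% of all genes were lower). LApcL adenoma cells lay at -2.67 (-2.71 to -2.64), and all 6 genes were over 2-fold lower (3.29% of all genes), from H2-Ab1 (5.25-fold) to H2-DMa (8.21-fold). With classes taken from marker scores this ratio was -2.07. The class II sum of LApcL adenoma cells, 140 CPM, lay between those of Paneth cells (126 CPM) and tuft cells (148 CPM) of the same library. The part of free RNA in these values was not tested.

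Immune markers moved with the comparison of the 2 adenomas. T cell and NK cell markers summed to 62.5 CPM in LApc and 2.56 CPM in LApcL adenoma cells, myeloid markers to 27.6 and 2.28 CPM, plasma cell markers to 17.4 and 0.112 CPM, and B cell markers to 3.47 and 0.635 CPM. Of the 26 immune markers measured, 5 were at 0 in LApc adenoma cells, among them Ms4a1, Flt3 and Xcr1, and 5 in LApcL. In LApc the myeloid and plasma cell markers stood highest where class II did, with 109 myeloid UMIs in 130 adenoma cells with 5 or more class II UMIs per 3000 and 17 in 691 cells with none, and 102 plasma cell UMIs against 0. T cell and NK cell markers went the other way, with 3 UMIs against 221. The number of cells that held the UMIs of each list was not counted, and a few cells can hold many of them. In LApcL the same split gave 1 myeloid UMI in 248 cells and 47 in 7029 cells. With every cell holding an immune marker UMI left out (1139 LApc and 8479 LApcL cells stayed) the summed log2 ratio was -2.32, and all 5 genes still at a mean of 10 CPM were over 2-fold lower.

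**Figure D3:**
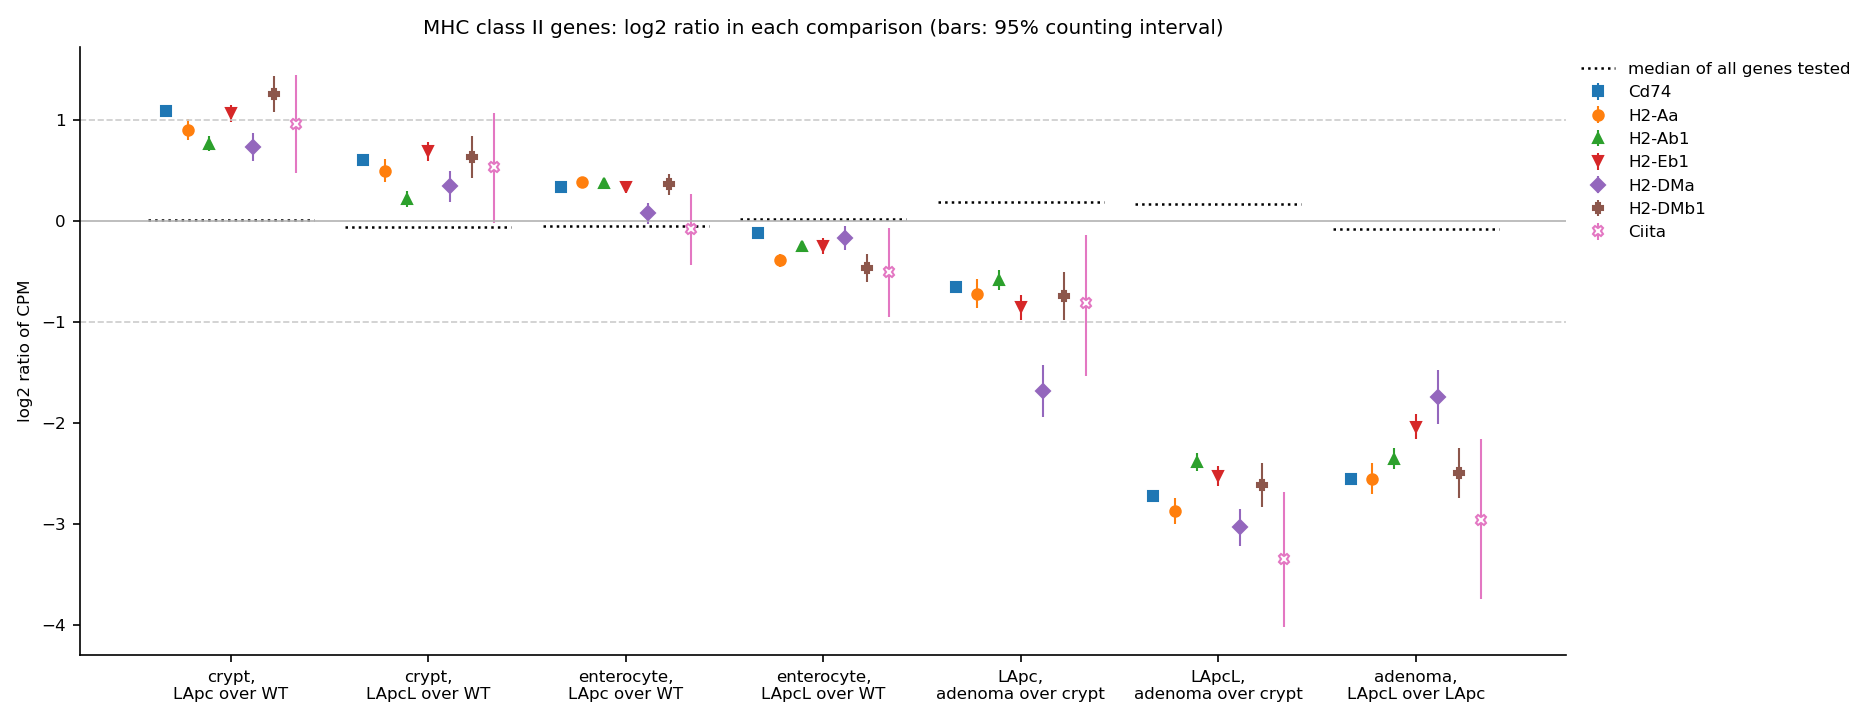
log2 ratio of CPM (y axis) of each of the 7 genes in 7 comparisons (x axis) with 95% counting intervals; dotted lines are the median of all genes tested, dashed lines mark 2-fold, and Ciita, drawn with a white marker, lay under 10 CPM. The genes lie near 1.00 in crypt cells of LApc over WT, and between -2.96 and -1.74 in adenoma cells of LApcL over LApc.

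The class II UMIs were spread over crypt cells in different ways in the 3 libraries. To compare cells at equal depth, each was thinned to 3000 UMIs, which left out no WT cell, 66 of 2114 LApc and 6 of 1506 LApcL crypt cells. At this depth 44.9% (43.1 to 46.7) of WT, 82.8% (81.1 to 84.4) of LApc and 64.9% (62.5 to 67.4) of LApcL crypt cells held a UMI of any of the 7 genes. Unthinned crypt cells gave 74.0%, 93.6% and 81.9%, with 10658, 7015 and 8786 UMIs in the median cell. WT crypt cells were uneven, with a variance of 10.2 times the mean of 1.93 UMIs per cell, against 4.76 times a mean of 4.00 in LApc. No class II UMI was found in 55.1% of WT, 17.2% of LApc and 35.1% of LApcL crypt cells, and 5 or more in 10.9%, 32.5% and 23.2%.

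Enterocytes showed 54.9% of cells with a class II UMI in WT, 80.6% in LApc and 65.2% in LApcL at 3000 UMIs, and 77.1%, 91.2% and 79.0% before thinning. Adenoma cells showed 42.4% (39.6 to 45.3) in LApc and 20.5% (19.7 to 21.4) in LApcL, and 66.5% and 43.6% before thinning. Paneth cells, the lowest class in WT, showed 21.7% in WT, 44.4% in LApc and 30.4% in LApcL, before thinning 84.5%, 78.4% and 58.3% at 44107, 14507.5 and 18634 UMIs. The adenoma shares thus lay at or below the Paneth share of their own library and are not read as expression on their own. The mean number of class II UMIs at this depth was 2.39 in adenoma and 0.976 in Paneth cells of LApc, and 0.508 and 0.596 in those of LApcL.

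A few adenoma cells held much of the signal. The top 1% of adenoma cells held 21.5% of the class II UMIs in LApc and 23.6% in LApcL, against 14.7%, 5.67% and 7.12% in crypt cells of WT, LApc and LApcL. Cells with 20 or more class II UMIs numbered 95 of 1248 in LApc and 170 of 8865 in LApcL, up to 243 and 86 UMIs in 1 cell. Leaving out the top 1% of each class moved the LApcL over LApc ratio to -2.48.

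**Figure D4:**
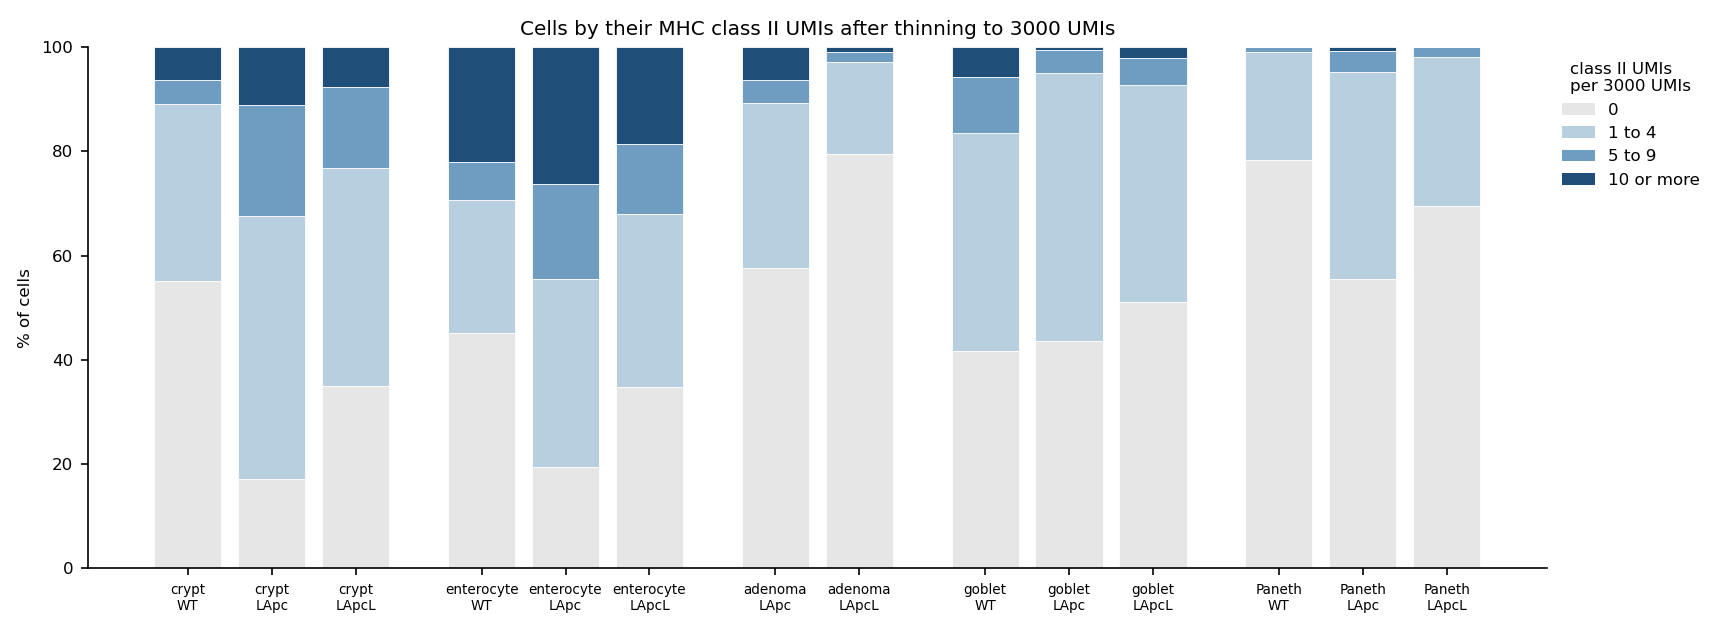
Share of cells (y axis, %) by number of class II UMIs (shades) after thinning every cell to 3000 UMIs, for each cell class and library (x axis). No class II UMI was found in 55.1% of WT crypt cells and 17.2% of LApc crypt cells, in 57.6% of LApc adenoma cells and in 79.5% of LApcL adenoma cells.

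The genes were found in the same cells. In WT crypt cells 21.7% of Cd74-positive cells held a H2-Aa UMI, against 2.75% of Cd74-negative ones, and in WT enterocytes 51.5% against 2.94%. In adenoma cells H2-Ab1 was found in 36.3% of Cd74-positive and 5.69% of Cd74-negative cells in LApc, and in 24.6% and 3.55% in LApcL. Ciita was rare in all cells, with 2.21% of Cd74-positive and 0.349% of Cd74-negative WT crypt cells holding a UMI. These shares are at 3000 UMIs per cell, and cells of 1 library share their mouse.

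The proportions among the genes differed between classes. UMIs of Cd74 per UMI of H2-Aa numbered 4.16 in WT enterocytes, 4.05 in LApc and 5.01 in LApcL, but 6.91, 7.85 and 7.43 in crypt cells. They numbered 8.24 (7.54 to 9.01) in LApc and 8.23 (7.71 to 8.78) in LApcL adenoma cells, with overlapping intervals at levels of both genes that differed over 5-fold. H2-Ab1 per H2-Aa UMI numbered between 1.31 and 1.45 in enterocytes, 1.74 and 2.11 in crypt cells, and 2.11 and 2.43 in adenoma cells. Of the editor, H2-DMb1 per H2-DMa UMI numbered 1.33 (1.08 to 1.66) in LApc and 0.792 (0.692 to 0.905) in LApcL adenoma cells, against 0.695 and 0.592 in crypt cells.

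Genes that act with the members behaved by group. In adenoma cells of LApcL against LApc, all 8 callable of 14 interferon-induced genes were over 2-fold lower (6.55% of all genes), with a median log2 ratio of -3.69. Iigp1, a GTPase against intracellular pathogens, stood at 0.439 CPM in LApcL against 25.7 CPM in LApc. The T cell chemokine Cxcl9 stood at 35.3 CPM in LApc and at 0.878 CPM in LApcL. The guanylate-binding protein gene Gbp2 stood at 40.0 and 1.03 CPM, and Igtp at 47.3 and 3.43 CPM. MHC class I genes showed the same sign, with 7 of 7 over 2-fold lower and a median of -1.94. The peptide transporter Tap1 stood at 30.9 and 5.65 CPM, the immunoproteasome subunit Psmb8 at 137 and 25.1 CPM, and the class I light chain B2m at 1044 and 236 CPM.

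Ciita aside, the regulators of class II differed less by their median ratios. None of 5 callable partners of Ciita at the X and Y boxes (Rfxap, Nfya, Nfyb, Nfyc and Creb1) passed 2-fold. Of all genes 6.55% were over 2-fold lower, so that count alone says little. The median log2 ratio of the partners was -0.33. Among the interferon gamma receptor and signalling genes, the transcription factor gene Irf1 stood at 18.0 CPM in LApcL against 36.0 CPM in LApc (just short of 2-fold, and past it at a log2 ratio of -1.01 without cells holding an immune marker UMI). Over the 7 callable genes of that list the median log2 ratio was -0.59. Of 6 antigen processing genes, the invariant chain protease Ctss was over 2-fold lower (7.28 against 18.3 CPM), where 6.55% of all genes were. That call was lost at a log2 ratio of -0.97 without cells holding an immune marker UMI. Ifi30, a thiol reductase, stood at 90.7 against 47.2 CPM. Of the costimulation and turnover genes only March8, a ubiquitin ligase that removes class II, reached 10 CPM, with a log2 ratio of -0.25. With the same cells left out, interferon-induced genes were 8 of 8 lower, at a median of -3.72.

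Against crypt cells the 2 adenomas differed in these groups as well. In LApc all 8 interferon-induced genes were over 2-fold higher in adenoma cells (12.8% of all genes), among them Cxcl9 at 35.3 against 0.326 CPM and Gbp2 at 40.0 against 1.17 CPM. Class I genes H2-D1 (925 against 307 CPM) and H2-K1 (665 against 281 CPM) were also over 2-fold higher, 2 of 8. So LApc adenoma cells stood higher than LApc crypt cells in interferon-induced genes while the class II sum stood lower. Among LApc adenoma cells, interferon-induced genes summed to 1979 CPM in the 130 cells with 5 or more class II UMIs per 3000 and to 156 CPM in the 691 cells with none. In LApcL the sole callable interferon-induced gene, Irgm1, was over 2-fold lower in adenoma cells (7.28 against 14.8 CPM), where 3.29% of all genes were. Class I genes Psmb9, Psmb8, Tap1 and B2m, 4 of 7, were over 2-fold lower too (3.29% of all genes). H2-K1 stood at 193 against 216 CPM and H2-D1 at 268 against 246 CPM.

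The lysosomal proteases split. Ctsl, Lgmn and Ctsd were over 2-fold higher in adenoma than in crypt cells of both libraries (12.8% of all genes in LApc and 5.28% in LApcL). Ctsl stood at 533 against 16.1 CPM in LApc and 367 against 48.9 CPM in LApcL. Ctss, the protease of the invariant chain in many antigen-presenting cells, stood lower in adenoma cells, at 18.3 against 43.9 CPM in LApc and 7.28 against 37.6 CPM in LApcL.

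**Figure D5:**
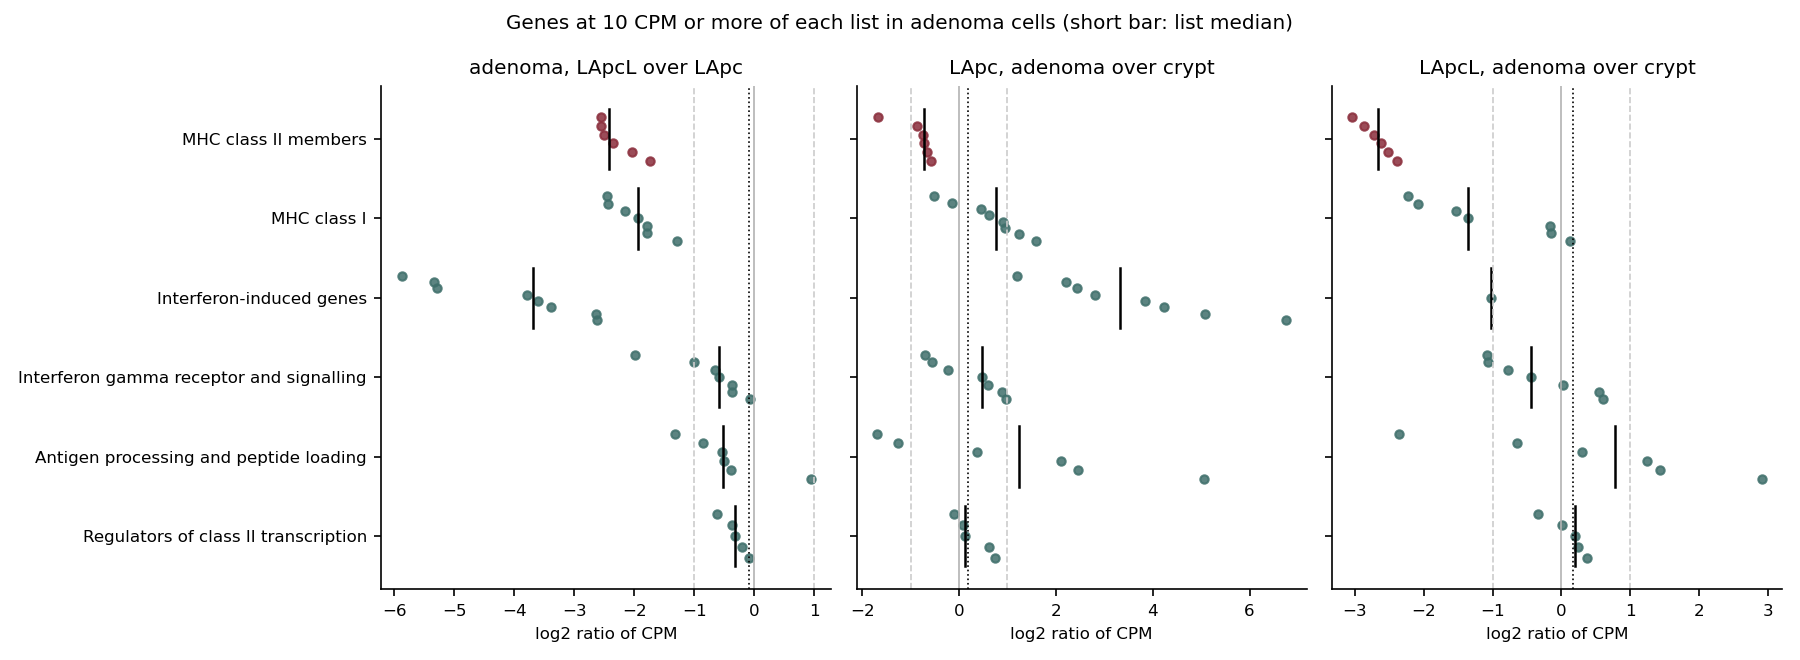
log2 ratio of CPM (x axis) for genes at a mean of 10 CPM or more in the class II set (top row) and 5 related lists, for LApcL over LApc adenoma cells and for adenoma over crypt cells of each library; points are genes, short bars list medians, dotted lines the median of all genes and dashed lines 2-fold. In LApc adenoma over crypt cells the interferon-induced genes lie above 0 (median 3.32) and the class II genes below 0.

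In crypt cells few callable genes of the related lists passed 2-fold. Between LApc and WT crypt cells none of the callable genes of the 6 lists did (0.905% of all genes were higher), with Tap1 the farthest at 22.7 against 13.4 CPM. Without cells holding an immune marker UMI none passed either, and only 1 of 14 interferon-induced genes was callable. Crypt cells thus say little on that list. In LApcL over WT crypt cells Ctsl (48.9 against 10.5 CPM) and Lgmn (18.8 against 8.85 CPM) alone did (1.01% of all genes). Both are also among the genes over 2-fold higher in adenoma cells, and the adenoma markers stood at 157 CPM in LApcL crypt cells against 3.66 CPM in WT, whose part in this was not tested.

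From crypt to enterocyte, 4 of 8 callable class I genes in WT, 4 of 8 in LApc and 5 of 8 in LApcL were over 2-fold higher, and so were 3 of 4, 4 of 5 and 4 of 5 interferon-induced genes (13.5%, 14.1% and 13.2% of all genes). Ifit1 stood at 19.3 against 1.17 CPM in WT, 29.2 against 1.31 CPM in LApc and 26.8 against 0.639 CPM in LApcL. H2-K1 stood at 570 against 250 CPM in WT, 706 against 281 CPM in LApc and 539 against 216 CPM in LApcL. Ctss passed 2-fold in all 3 libraries, with log2 ratios of 1.44, 1.30 and 1.42. Of the partners of Ciita, 3 of 6 callable genes were over 2-fold lower in WT enterocytes (15.4% of all genes), 1 of 4 in LApc (18.8%) and none of 4 in LApcL (11.1%), at median log2 ratios of -0.84, -0.80 and -0.65. In WT these were Nfyb at 14.8 against 32.4 CPM, Rfxap at 14.5 against 29.1 CPM and Nfya at 7.76 against 15.6 CPM, and in LApc Nfyb at 13.2 against 28.8 CPM.

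Across the 20 profiles of all named cell classes and libraries, the 7 genes followed each other closely. Pearson correlations between members, on log2(CPM + 10), ran from 0.785 (H2-DMb1 with Ciita) to 0.988 (Cd74 with H2-Eb1). Among 10605 genes at 10 CPM or more in a profile, Mgam, an intestinal brush border enzyme, was most like the mean of the members (r = 0.947). Coro2a (0.941), Slc4a4 (0.938), Tstd1 (0.932), Ctss (0.930), 2610528A11Rik (0.928), Cds1 (0.921), Maoa (0.916) and 1700025G04Rik (0.916) were also among the most alike. Profiles of a library share its depth and free RNA, and 3 profiles stand for each class except adenoma, so these values are a description only.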

How the data were processed

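EpCAM+ epithelium of the 3 genotypes was profiled by 10x 3′ scRNA-seq, 1 library each, with reagent kit v2 or v3 (not given per library). The authors deposited raw UMI counts per gene and barcode, and per the labels these came from Cell Ranger 2.1.1 with the mm10 (GRCm38) reference. No per-sample column was left unused (0). The libraries held 11453, 13214 and 17388 barcodes with 140181087, 79696291 and 191509615 UMIs, and between 214 and 318 barcode sequences were shared by a pair of libraries.

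The top and bottom 1% of cells by genes and cells over 20% mitochondrial UMIs were left out (17.7% of LApc barcodes, 0.541% of WT and 2.38% of LApcL). The cells with the highest Scrublet scores (scanpy 1.11.5) were removed as doublets at the expected rates of 9.16%, 10.6% and 13.9%, since the automatic limit called 2875, 3 and 2091 cells. This choice was made after seeing those calls. Cells were clustered in Seurat 5.3.0 (R 4.3.3, 20 components, resolution 0.2) without 16 listed genes among 967 integration features. Clusters were named where at least 3 markers stood 1.5-fold higher at 10 CPM, and adenoma subclusters (resolution 0.4) where WT made up under 10%. These limits were set after the clusters were seen. Of the listed markers, Defa30, Ighm, Ighd, Igkc, Iglc2 and Trac were not analysed here.

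UMIs were summed per class and library and scaled to CPM. Intervals are exact 95% Poisson for CPM, exact binomial for ratios and Clopper-Pearson for shares. The share of all genes past 2-fold was taken over genes at a mean of 10 CPM. No test across libraries was possible with 1 library per group. For shares, cells were thinned to 3000 UMIs. The scripts were tested on simulated data. Named genes are all 7 members, up to 4 genes past 2-fold of each related list per comparison, ranked by size, and the 10 genes most alike by Pearson correlation of log2(CPM + 10). Other genes of the lists were named after their values were seen. Some genes that the rule names are not reported here. The members and lists were chosen with earlier results of these data known. Alternatives were TMM factors (edgeR 4.0.16), totals without 123 ribosomal protein and mitochondrial genes, the cell filters, thinning, resolution and class rule.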

Additional observations from a re-analysis of the deposited data

Results flagged for a closer look

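Cells left out of every comparison held class II UMIs above their WT counterparts in the LApc library. In the 66 LApc cells with a Ptprc UMI the 7 genes summed to 5043 CPM, against 583 CPM in WT. Of these, the 25 that clustered with crypt, enterocyte or adenoma cells stood at 9078 CPM, against 2196 CPM in 14 WT cells. Leukocyte markers moved with this, with myeloid markers at 5214 CPM and T cell and NK cell markers at 6768 CPM in these LApc cells, against 6.97 and 34.9 CPM in the WT cells. Tuft cells made up 95 of the 122 Ptprc-positive WT cells and 30 of the 66 in LApc, and without them the class II sums were 8997 CPM in 36 LApc cells and 1203 CPM in 27 WT cells. The 2342 LApc barcodes over 20% mitochondrial UMIs stood at 2451 CPM, against 1063 CPM in 62 WT barcodes. Each was singled out as a signal in data outside the comparisons that lies above the WT library, and none was tested.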

How the results depend on the processing

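Each of 7 class II log2 ratios was recomputed under 10 other settings of the processing, and 25 of 70 values moved by less than the counting interval, 44 moved by more and 1 reversed. For adenoma cells of LApcL over LApc (-2.44) the moved values were -2.21 with TMM factors, -2.33 with totals without ribosomal protein and mitochondrial genes, -2.56 with Ptprc-positive cells, -2.32 without cells holding an immune marker UMI, -2.34 with doublets, -2.34 thinned, -2.33 at resolution 0.4, -2.12 with marker scores and -2.48 without the top 1% of cells. For crypt cells of LApc over WT (1.00) they were 0.92 with TMM, 1.05 with the other totals, 1.05 thinned, 0.84 with marker scores and 1.15 without the top 1%. For crypt cells of LApcL over WT (0.53) they were 0.64 with the other totals, 0.39 with doublets, 0.60 thinned, 0.15 with marker scores and 0.65 without the top 1%. For enterocytes of LApc over WT (0.34) they were 0.36 with the other totals, 0.46 thinned, 0.46 at resolution 0.4 and, reversed, -0.02 at a mitochondrial limit of 10%. For enterocytes of LApcL over WT (-0.21) they were -0.31 with TMM, -0.09 with the other totals, -0.16 with doublets, -0.24 at the 10% limit, -0.03 thinned, -0.15 at resolution 0.4 and -0.11 with marker scores, and 0.34, reversed, with states weighted as in WT, chosen after seeing the data. For LApc adenoma over crypt cells (-0.70) they were -0.98 with TMM, -0.90 with the other totals, -0.59 with Ptprc-positive cells, -0.84 without immune marker cells, -0.61 with doublets, -0.76 at resolution 0.4, -0.64 with marker scores and -0.97 without the top 1%. For LApcL adenoma over crypt cells (-2.67) they were -2.81 with TMM, -2.82 with the other totals, -2.36 with doublets, -2.58 thinned, -2.63 at resolution 0.4, -2.07 with marker scores and -2.96 without the top 1%. The causes of these shifts were not tested. Without thinning, shares of cells with a class II UMI moved from 44.9% to 74.0%, 82.8% to 93.6% and 64.9% to 81.9% in crypt cells (WT, LApc, LApcL), from 54.9% to 77.1%, 80.6% to 91.2% and 65.2% to 79.0% in enterocytes, and from 42.4% to 66.5% and 20.5% to 43.6% in adenoma cells of LApc and LApcL. No paired analysis was possible because there was 1 library per group. Depth limits Ciita above all, with 25 UMIs in LApc and 35 UMIs in LApcL adenoma cells.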

Other observations

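Class II genes were also found in the secretory classes, which were looked at after the other values were seen. Goblet cells, which make mucus, had class II sums of 826 CPM in WT against 435 in LApc and 467 in LApcL. Enteroendocrine cells, the hormone-making cells, had 634, 459 and 243 CPM. In both classes WT stood highest, the reverse of crypt cells. Paneth cells had 111, 246 and 126 CPM, and the chemosensory tuft cells 310, 432 and 148 CPM. Goblet cells held 1.66 H2-DMb1 UMIs per H2-DMa UMI in WT, against 0.484 in WT crypt cells.

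Crypt cells rich in class II also held more of other genes. In WT, 326 crypt cells with 5 or more class II UMIs per 3000 stood above 1652 crypt cells with none by 1.89 on the log2 scale for interferon-induced genes and by 0.99 for MHC class I genes. In LApc crypt cells these differences were 0.60 and 0.40, and in LApcL crypt cells 1.02 and 0.55. In adenoma cells they were 3.66 and 2.40 in LApc, where myeloid markers stood higher in the rich cells too, and 2.40 and 1.00 in LApcL. Fabp6 also stood higher in the rich crypt cells, by 2.12 in WT, 0.68 in LApc and 1.10 in LApcL. Lgr5 differed by 0.81, 2.17 and 0.44 (-0.17 to 1.05 in LApcL), and Apoa4 by -0.07, -0.06 and -0.05. The cells were split by the class II UMIs themselves, cells are not replicates, and no test was made.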
